A study of Drosophila melanogaster with 2 samples.

Results

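Peaks near the starts of non-coding RNA genes made up 307 of the 6407 scrt-GFP peaks (4.79%) that the authors kept in whole Drosophila melanogaster embryos. Each member is a peak whose summit lay within 1000 bp of an annotated start (TSS) of a non-coding RNA gene and more than 500 bp from every protein-coding TSS. Pseudogenes and transposable elements were not counted as non-coding RNA genes, and the signal of a peak was not used to choose it. The study is a chromatin immunoprecipitation and sequencing (ChIP-seq) experiment on scrt, with 1 group of 2 biological replicates, numbered 3 and 4. The embryos were of both sexes, aged 4 to 24 h, from a transgenic line whose scrt protein carries GFP at its C terminus. Both replicates are whole-embryo chromatin from this 1 line, so the cells in which a site was bound are not known. The labels describe the libraries as input controls but give scrt as the antibody, and they were taken here as scrt-GFP immunoprecipitations. The authors' lists are the peaks of each replicate, the peaks of both pooled, and a list filtered on the irreproducible discovery rate (IDR), called optimal, from which the members were drawn. With 1 group and no peak list of a control line, no difference between conditions can be tested, and the values below are descriptions. Intervals are 95% and cover counting error only. The read depth is unknown.

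Scratch (scrt) belongs to the Snail family of zinc-finger proteins, is expressed in neuronal precursors and neurons, and is known as a transcriptional repressor. Long non-coding RNA genes are transcribed by RNA polymerase II like coding genes, and some of them are the primary transcripts from which microRNAs are cut. Transfer RNA (tRNA) genes are transcribed by RNA polymerase III from promoter elements inside the gene. Most small nucleolar RNAs (snoRNAs) of the fly lie in introns of a host gene, and microRNA hairpins are often part of a longer transcript. The annotated start of a tRNA, snoRNA or microRNA gene is therefore the end of the processed RNA or hairpin, not the site where transcription begins.

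The windows of 100 bp on each side of 8 chosen summits are printed as examples of the members. The sequences are from the RefSeq genome of the assembly on which peaks were deposited (dm6). They are written 5′ to 3′ on the strand of the RNA gene. Capitals mark the 7 motifs that were searched, on either strand, the first being the core of the E-box bound by Snail-family factors, CAGGTG. Its longer form is CAACAGGTG, which contains it. A further E-box searched was CAGCTG, and the repeat read by GAGA factor was searched as GAGAGA. The other words were GCAACA, chosen as frequent in these peaks, the DRE core promoter element TATCGATA and a word of the B box inside tRNA genes, GGTTCGA. In the tRNA:Leu-TAA-4-1 window 2 of these words overlap. The first 3 windows lie at the starts of the long non-coding RNAs that contain the microRNAs bantam, mir-279 with mir-996, and mir-124. The next 5 are the strongest antisense member, 2 tRNA members, the snoRNA member with the DRE and the mir-287 member. The windows are not typical in motif content: over all members GCAACA was found at 29.3%, CAACAGGTG at 2 summits and TATCGATA at 1. The strongest long non-coding, snoRNA and microRNA members are not shown, and their windows hold none of the 7 motifs.
lncRNA:CR43334, chr3L:628217-628417, plus strand: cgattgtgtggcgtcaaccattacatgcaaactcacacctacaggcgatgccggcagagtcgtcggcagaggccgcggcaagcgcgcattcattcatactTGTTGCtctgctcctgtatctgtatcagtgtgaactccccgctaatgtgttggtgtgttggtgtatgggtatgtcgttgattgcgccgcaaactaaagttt
lncRNA:CR31044, chr3R:29214339-29214539, plus strand: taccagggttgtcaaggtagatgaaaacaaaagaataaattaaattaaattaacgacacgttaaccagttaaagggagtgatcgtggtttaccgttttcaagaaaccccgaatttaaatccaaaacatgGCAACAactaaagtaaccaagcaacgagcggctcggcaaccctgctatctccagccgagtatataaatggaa
lncRNA:CR45919, chr2L:17560219-17560419, plus strand: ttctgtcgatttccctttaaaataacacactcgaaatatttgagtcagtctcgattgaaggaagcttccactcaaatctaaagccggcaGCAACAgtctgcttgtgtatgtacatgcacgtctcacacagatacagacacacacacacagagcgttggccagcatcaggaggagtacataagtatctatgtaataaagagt
asRNA:CR44429, chrX:15298352-15298552, minus strand: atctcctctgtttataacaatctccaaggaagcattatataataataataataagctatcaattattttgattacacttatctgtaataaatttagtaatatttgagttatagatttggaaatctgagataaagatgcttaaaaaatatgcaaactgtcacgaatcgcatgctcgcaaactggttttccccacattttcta
tRNA:Leu-TAA-4-1, chr3R:24264436-24264636, plus strand: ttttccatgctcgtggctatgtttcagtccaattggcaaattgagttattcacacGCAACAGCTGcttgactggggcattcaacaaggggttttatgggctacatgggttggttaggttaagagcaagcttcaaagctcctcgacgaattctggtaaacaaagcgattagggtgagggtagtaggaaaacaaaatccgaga
tRNA:Trp-CCA-2-1, chr2L:4418123-4418323, minus strand: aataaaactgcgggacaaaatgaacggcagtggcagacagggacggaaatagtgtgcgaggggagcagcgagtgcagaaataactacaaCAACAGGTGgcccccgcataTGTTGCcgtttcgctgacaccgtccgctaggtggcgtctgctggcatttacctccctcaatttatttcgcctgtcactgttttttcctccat
snoRNA:Me28S-U3344a, chrX:21053168-21053368, minus strand: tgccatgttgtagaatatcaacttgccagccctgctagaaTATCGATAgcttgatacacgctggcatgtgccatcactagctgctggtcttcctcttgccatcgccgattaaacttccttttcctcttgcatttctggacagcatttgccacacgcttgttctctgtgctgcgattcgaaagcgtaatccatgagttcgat
mir-287, chr2L:17574454-17574654, plus strand: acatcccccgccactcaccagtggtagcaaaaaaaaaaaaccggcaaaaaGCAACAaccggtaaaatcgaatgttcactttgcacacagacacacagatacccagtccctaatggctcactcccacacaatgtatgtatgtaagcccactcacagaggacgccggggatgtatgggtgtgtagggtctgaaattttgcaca

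The mature microRNAs carried by the 3 host transcripts of the windows above are given because the strong summits there lay at the starts of the hosts and not at the hairpins. Sequences are RefSeq's for the same assembly, with the seed (bases 2 to 8) in capitals. The seed of mir-279-3p was the same as that of mir-996-3p, and both microRNAs lie in 1 host transcript, whereas the bantam and mir-124 arms shown had other seeds.
mir-ban-3p, chr3L:642259-642281, plus strand: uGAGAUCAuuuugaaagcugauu
mir-279-3p, chr3R:29215651-29215672, plus strand: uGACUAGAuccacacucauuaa
mir-996-3p, chr3R:29217244-29217265, plus strand: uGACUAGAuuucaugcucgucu
mir-124-3p, chr2L:17566426-17566448, plus strand: uAAGGCACgcggugaaugccaag

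Long non-coding RNA genes held most of the members, and also most of the sequence that the rule covers. They are 1959 of the 3470 non-coding RNA genes, and their starts are the nearest for 3.2 of the 4.87 Mb open to members. By the class of the nearest start, 224 members (73%) lay at long non-coding RNAs, 30 at antisense RNAs, 22 at tRNA genes, 19 at microRNA genes, 9 at snoRNA genes and 3 at small nuclear RNA (snRNA) genes. No member lay at a ribosomal RNA gene. The 307 summits had 275 different nearest genes, and 29 genes were the nearest for more than 1 summit. Of the members, 42 had more than 1 non-coding gene within the window, with a maximum of 6, a tRNA cluster around tRNA:Ile-AAT-1-5. Members are not all separate sites, since 22 overlapped another member and 24 shared their best-overlapping peak of replicate 3 with another member, as did 24 in replicate 4. Of all 542 optimal summits within 1000 bp of a non-coding TSS, 235 lay within 500 bp of a protein-coding TSS and were left out by the rule. The median distance of members to the nearest coding TSS was 2808 bp, with 55 members at no more than 1000 bp and 89 beyond 5000 bp. At the limits of the rule, the members CR44731 and CR45906 lay 995 and 994 bp from the non-coding start, with signals of 278 and 619, and the summits at tRNA:Met-CAT-1-2 and CR44206 were left out at 1001 and 1002 bp, with signals of 683 and 484. The members CR45618 and CR46258 lay 509 and 514 bp from a coding TSS, with signals of 613 and 333, and the summits at CR45166 and asRNA:CR45397 were left out at 497 and 479 bp, with signals of 234 and 281.

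The deposited signal of a peak, the authors' own enrichment value within their list, was moderate at most members. Its median over the members was 325, with quartiles of 242 and 614 and a maximum of 4892. Peaks within 500 bp of a coding TSS had a median of 370.1, the remaining 3255 peaks had 312 and all optimal peaks had 333. The members were spread over the whole ranking, with 66 of 307 at ranks 1 to 1281 of the optimal list and 60 at ranks 5126 to 6407, and 25 among the 500 leading peaks. Among the classes the median signal was 464 for antisense members, 328 for long non-coding, 322 for snoRNA, 268 for microRNA, 243 for tRNA and 219 for snRNA members. The ranges overlapped in every class, since each began between 194 and 205. The lowest members of the long non-coding, antisense and tRNA classes, CR45243, asRNA:CR43916 and tRNA:Thr-AGT-1-2, each had a signal of 194, close to the lowest signal of the optimal list, 193.

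**Figure D1:**
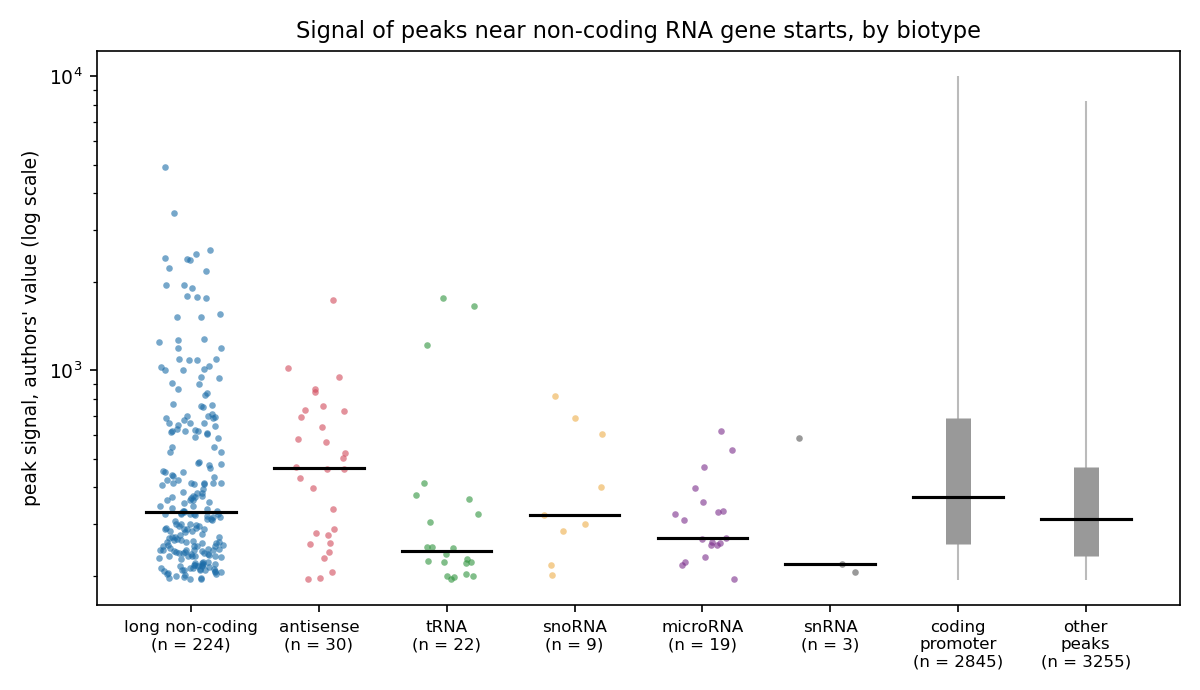
Peak signal (the authors' value, log scale) of each member, by class of the nearest non-coding RNA gene, with the class median as a black line. At the right, coding promoter peaks and all remaining peaks are drawn as median, quartiles (thick bar) and range (thin line); the antisense median is 464 and the tRNA median 243, against 370.1 for coding promoter peaks.

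The strongest member lay on the X chromosome beside CR44619, a long non-coding RNA gene of unstated function. Its summit, 552 bp upstream of the start, had a signal of 4892 and ranked 20 in the optimal list, 25 in replicate 3 and 25 in replicate 4. A second summit, 500 bp downstream of the same start, had a signal of 2415 and ranked 163 in replicate 3 and 112 in replicate 4, and another summit, nearest to the start of Vinr, had 951. Vinr overlaps the start of CR44619 on the same strand, and the 4892 summit lies inside the annotated Vinr gene. The second strongest member, with a signal of 3435, lay 118 bp upstream of CR43334, the host of bantam, and ranked 55 in replicate 3 and 66 in replicate 4. CR42862 (2558), CR31044 (2390), CR31840 (2364), CR44339 (2218) and CR43287 (2168) followed, together with CR45643 beside tara, which had 2 summits of 2483 and 1768. The CR42862 summit lay in an exon of the coding gene CG33229, 591 bp from a coding TSS and equally 591 bp from the CR42862 start. CR46036 (1954) lay in an intron of osa, which encodes a subunit of the Brahma chromatin remodelling complex, as did the next member after these 15, at CR46035 (1757). CR44951 (1946), CR44933 (1909), CR44417 (1780) and the tRNA gene tRNA:Lys-CTT-1-10 (1764) complete the 15 members of highest signal. Of these 15, only the 1764 summit had a nearest non-coding gene that was not a long non-coding RNA. Their ranks lay between 25 and 316 in replicate 3 and between 25 and 400 in replicate 4, so all 15 were among the leading peaks of both samples.

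Over all members, the replicates overlapped most fully at the top of the list, while its end lies near the rank that defines a leading peak. Among the 6407 best peaks of each replicate, a peak of both overlapped 231 members by at least 1 bp, which is 75.2% (70.1 to 79.7). The share was 79.6% for coding promoter peaks, 76.3% for the remaining peaks and 77.7% for all optimal peaks. At ranks 1 to 1281 it was 98.5% of members, against 99.1% of all optimal peaks, and at ranks 5126 to 6407 it was 28.3% of members, against 29.5%. It was 80% for antisense, 77.8% for snoRNA, 77.2% for long non-coding, 68.4% for microRNA and 63.6% for tRNA members, and 0 of the 3 snRNA members met it. In the full lists of 30000 entries, which are labelled as peaks and background, 303 members (98.7%) overlapped an entry in both replicates. The share was 96.3% for coding promoter peaks, 98.6% for the remaining peaks and 97.6% for all optimal peaks. The optimal list was made from the same 2 samples, so this overlap is not independent of the choice of peaks. The 4 exceptions were asRNA:CR44512 (863), snRNA:U5:63BC (588) and CR44517 (206), with no peak in replicate 3, and 1 of 2 summits at CR46352 (374), with none in replicate 4. The rank in replicate 3 was the better one at 156 members and that in replicate 4 at 146. CR44868 alone differed more than 10-fold, with rank 1988 in replicate 3 and 28806 in replicate 4.

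**Figure D2:**
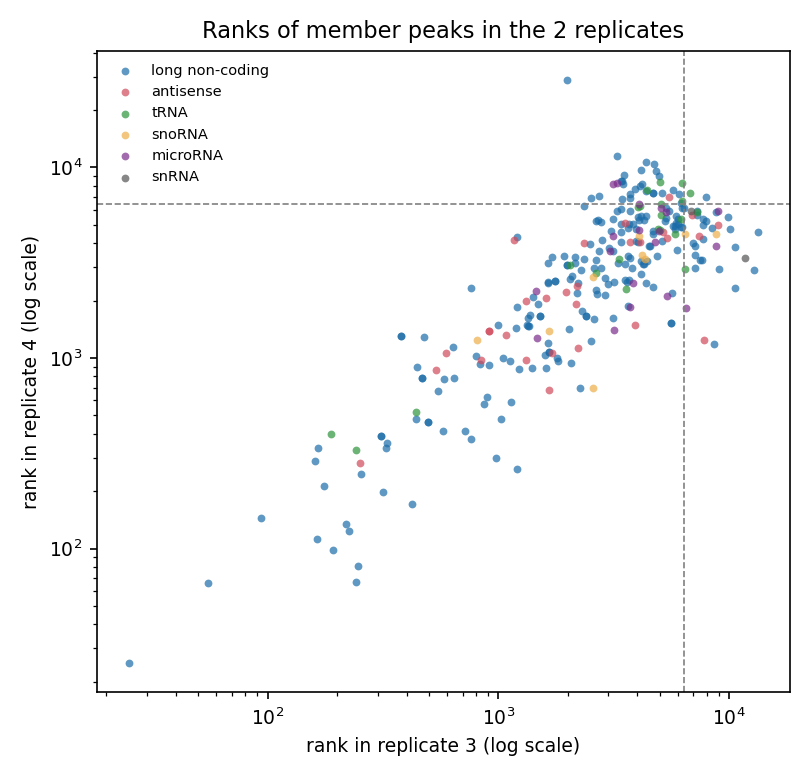
Rank of the peak that overlaps each member in replicate 3 (x axis) and in replicate 4 (y axis), both on log scales, with colour for the class of the non-coding gene. Dashed lines mark rank 6407, the end of the leading peaks; the CR44619 member sits at rank 25 in both, and the CR44868 member stands apart at 1988 and 28806.

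The density of summits was higher close to a non-coding start than further from it. The members lay in the 4.87 Mb (3.64% of the genome) that the rule covers, at 63 summits per Mb (exact Poisson interval 56.2 to 70.5). The sequence within 500 bp of coding TSSs had 186 per Mb, the remaining sequence 28.6 and the whole genome 47.9. Outside the coding promoters there were 72.7 summits per Mb at 0 to 250 bp from a non-coding TSS, 71.3 at 251 to 500 bp, 52.7 at 501 to 1000 bp, 42.9 at 1001 to 2000 bp and 35.1 at 2001 to 5000 bp. By class, the density was 70 per Mb around long non-coding, 69.1 around tRNA, 54.3 around microRNA, 45.8 around antisense and 44.1 around snoRNA genes, and the intervals of these 5 classes overlapped. The median distance was 409 bp for members, of which 10.7% lay within 100 bp, against 147 bp and 37.5% for the 3430 optimal summits within 1000 bp of a coding TSS. The rule itself removes summits close to coding starts from the members only, and the 2 sets share no common limit there.

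Most antisense and tRNA members lay upstream of the start, while long non-coding members were spread over both sides. Long non-coding members lay upstream in 113 of 224 cases (50.4%), and 48% of the bases open to them were upstream. Antisense members lay upstream in 26 of 30 cases, which is 86.7% (70.3 to 94.7), where 53.6% of the bases were upstream. The corresponding shares were 77.3% of 22 tRNA summits (56.6 to 89.9) with 48.7% of the bases, 7 of 9 snoRNA summits with 42.2%, and 9 of 19 microRNA summits with 46.7%. Taken from 1 replicate at a time, the antisense share was 79.3% (61.6 to 90.2) in replicate 3 and 80.6% (63.7 to 90.8) in replicate 4. The tRNA share was 71.4% (50 to 86.2) and 66.7% (46.7 to 82), and the replicate 4 interval includes the 48.7% of bases. With the 5′ end of each gene as its only start, the antisense share was 75.5% (61.9 to 85.4). Of the antisense members, 18 lay at starts inside a coding gene on the opposite strand, so that upstream of the RNA is towards the end of that gene.

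**Figure D3:**
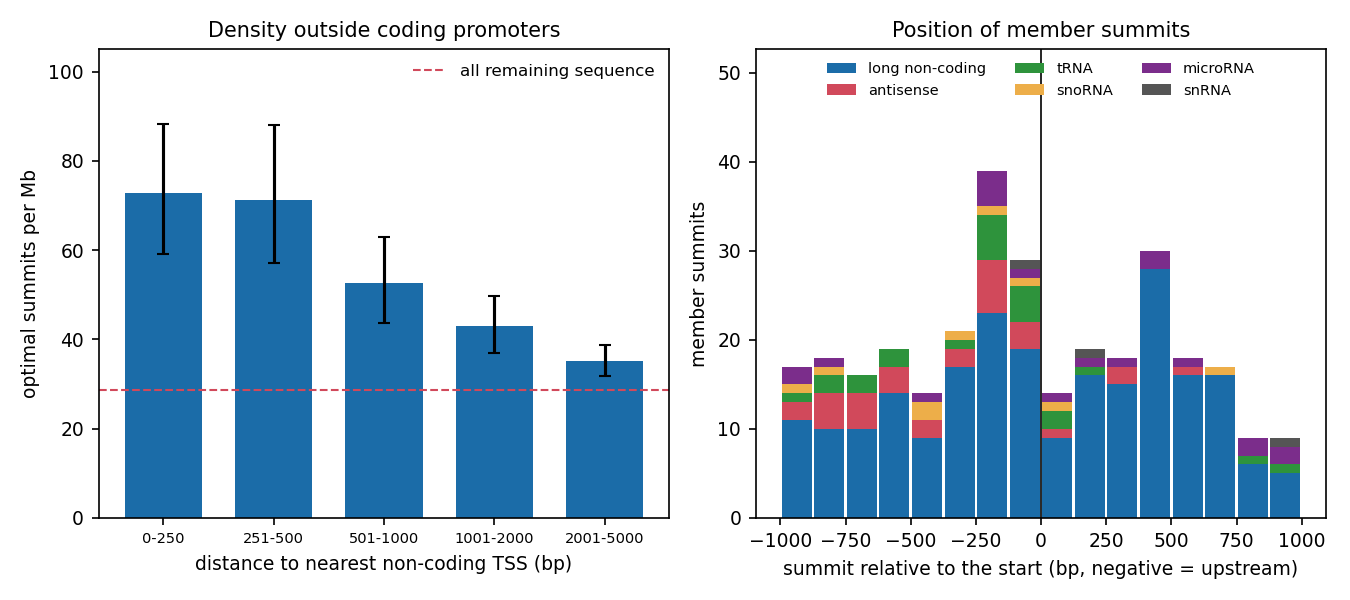
Left, optimal summits per Mb of sequence outside coding promoters, by distance to the nearest non-coding TSS (bars with exact Poisson 95% intervals), falling to 35.1 per Mb at 2001 to 5000 bp; the dashed line marks the 28.6 per Mb of all sequence outside both rules. Right, member summits by signed distance to the start, coloured by class; antisense and tRNA members lie mostly on the upstream side.

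Most members lay outside coding genes. A protein-coding gene covered 123 of the 307 summits, 40.1% (34.7 to 45.6), and 114 of these were intronic. The share was 56% for coding promoter peaks, 72.8% for the remaining peaks and 63.8% for all optimal peaks. It was 32.6% for long non-coding, 60% for antisense, 50% for tRNA, 68.4% for microRNA and 77.8% for snoRNA members. How much of the sequence open to members lies in coding genes was not computed, so the lower share of members may come from the rule itself. An exon of a non-coding gene covered 90 summits (29.3%), which the choice by non-coding starts favours, against 3.03% of all optimal peaks. The GC content within 100 bp of the summit was close to that of the list, with a median of 39.3% for members and 39.8% for all optimal peaks. Arm 2R held 13 of the 22 tRNA members and 98 of the 290 tRNA genes, and it held 21.5% of all members and 18.8% of all optimal peaks.

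Seen from the genes, 535 of 3470 non-coding RNA genes had an optimal summit within 1000 bp of a TSS, which is 15.4% (14.3 to 16.7), against 25.6% of 13945 protein-coding genes. Where a coding TSS lay within 500 bp, 27% of 566 non-coding genes had one. Where no coding TSS lay within 1500 bp, 9.82% of 2158 did, and all 212 of these genes had a member, as the distances require. The share over all genes of a class was 21.4% for tRNA, 20.9% for snoRNA, 18.8% for snRNA, 18.3% for antisense, 14.6% for long non-coding and 11.5% for microRNA genes. Away from coding starts it was 12.2% for tRNA, 11.1% for long non-coding, 9.58% for microRNA, 8.15% for snoRNA and 3.95% (1.82 to 8.34) for antisense genes. The order of the classes was therefore not the same in the 2 sets, and antisense genes moved from the middle to the lowest of these 5. None of 99 ribosomal RNA genes had a summit, which allows a share of up to 3.03% as 3 counts of 99 and has a Wilson upper limit of 3.74%. These limits treat the genes as independent, but their windows overlap and cover only 0.0431 Mb. By length the upper limit is 85.6 summits per Mb, above the 63 per Mb of members, so the absence is weakly supported. Ribosomal RNA and tRNA genes have near-identical copies, and how reads with several matching places were treated is not given in the sources used here.

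**Figure D4:**
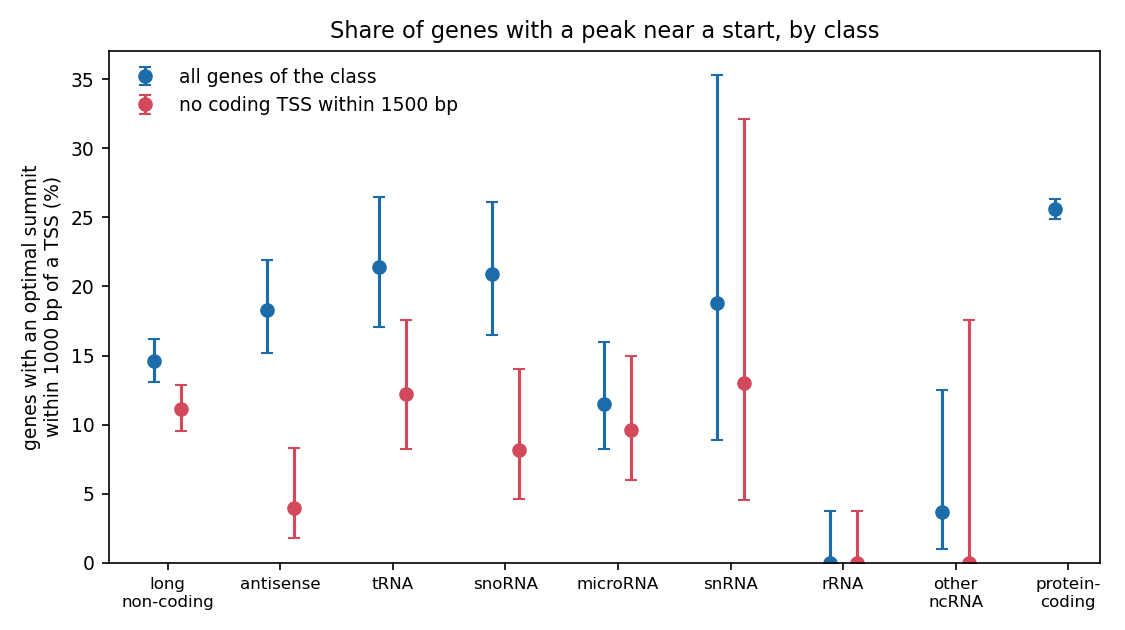
Share of genes with an optimal summit within 1000 bp of a TSS, by class, with Wilson 95% intervals, for all genes (blue) and for genes with no coding TSS within 1500 bp (red). Antisense genes have 18.3% and 3.95%, and protein-coding genes at the right have 25.6%.

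The host transcripts of microRNAs had members at a larger share than the other long non-coding and antisense genes; this grouping was made after their values were seen, and the difference was not tested. Of 262 microRNA genes, 51 lie on the same strand inside 37 such genes. A member lay within 1000 bp of a start of 14 of the 37 hosts, 37.8% (24.1 to 53.9), against 220 of the other 2425 genes, 9.07% (7.99 to 10.3), and 9.5% of all 2462. Hosts had a median length of 6436 bp, against 711 bp for the others, and 23 of the 37 hosts had 1 TSS, against 2311 of the 2425 others. Among genes over 5000 bp the share was 45.5% of 22 hosts and 15.2% of 92 others. Among genes with 1 TSS it was 30.4% of 23 hosts and 8.83% of 2311 others. From the leading peaks of replicate 3 alone the share of hosts was 32.4%, and from those of replicate 4 alone it was 37.8%.

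The 14 hosts carry 17 microRNAs, several of them known for roles in growth or the nervous system. The summit at CR43334, with a signal of 3435, lay 118 bp upstream of the host start. The hairpin of bantam, which promotes tissue growth and blocks cell death, begins 13773 bp downstream of that start. A weak summit of 308 lay 488 bp downstream of the start of the hairpin itself. CR31044, with a summit of 2390 at 123 bp upstream, carries mir-279 and mir-996, which limit the formation of carbon dioxide-sensing neurons, and ranked 246 in replicate 3 and 81 in replicate 4. CR45919, with summits of 1510 and 651, carries mir-124, the abundant microRNA of the nervous system, and its 1510 summit ranked 309 in replicate 3 and 390 in replicate 4. Its 651 summit has the same peak bounds and overlaps the same replicate peaks. CR43650, the host of mir-8, had 3 member summits of 1513, 475 and 290.1, the last 2 in overlapping peaks. Hsromega, the heat-inducible nuclear RNA that contains mir-4951, had summits of 999 and 333, and its 999 summit ranked 643 in replicate 3 and 782 in replicate 4. CR43651, which carries mir-14, had a summit of 698 at 6 bp upstream of its start. The remaining 8 hosts had weaker summits, between 659 at the mir-282 host and 194 at CR43459. CR43459 carries mir-277, a regulator of branched-chain amino acid breakdown, and mir-34, which is known for its role in the ageing brain. CR45916, which carries mir-9a, a microRNA that limits the number of sensory organ precursors, had a summit of 266 at 707 bp upstream. The hairpins lay between 139 bp (mir-375) and 20589 bp (mir-4951) from the start of the host.

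**Figure D5:**
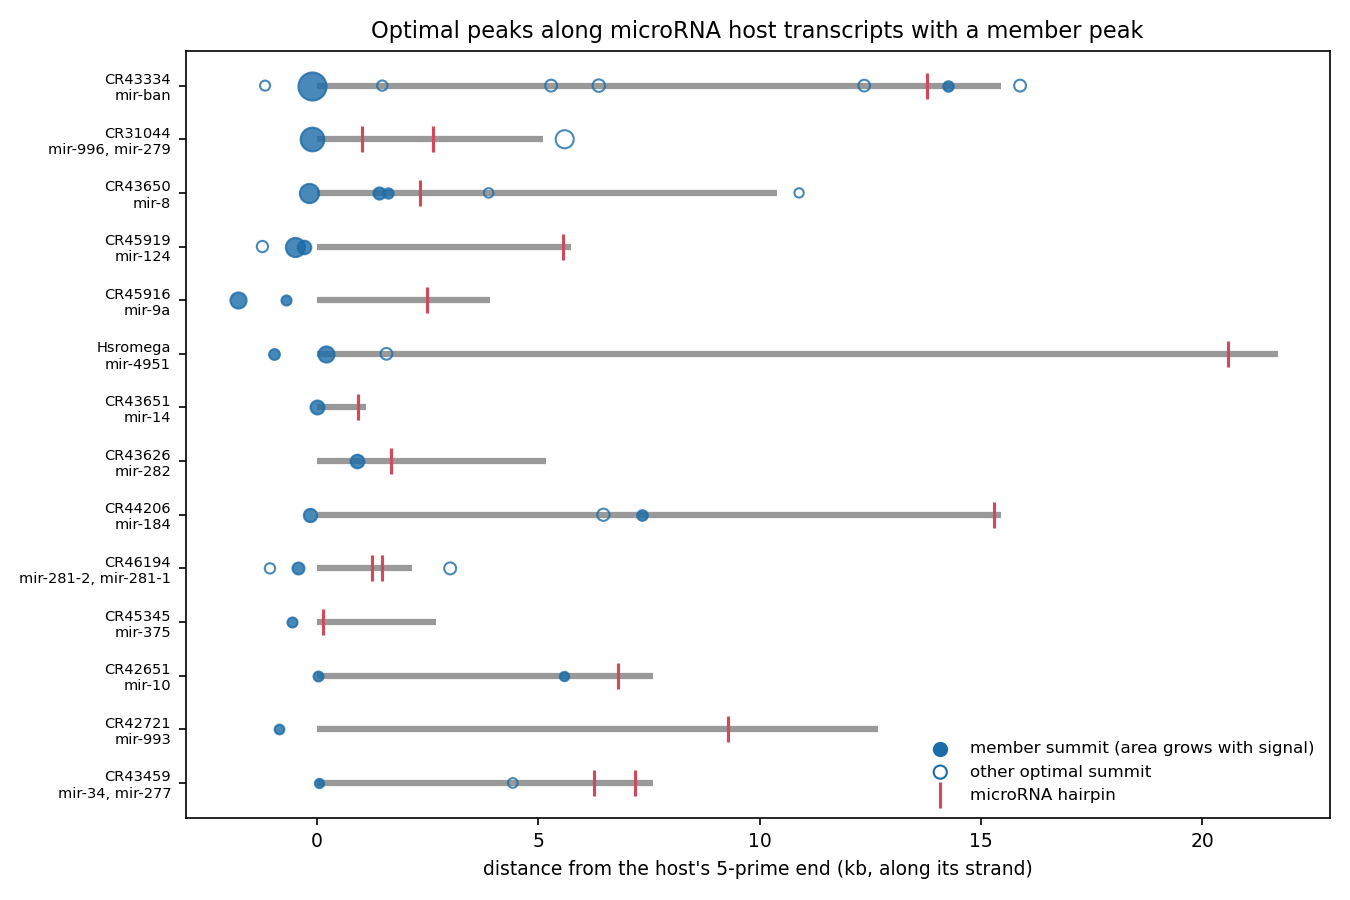
The 14 microRNA host transcripts with a member, drawn as grey bars from their 5′ end (0 kb) along their own strand, with member summits (filled circles), other optimal summits (open circles) and microRNA hairpins (red ticks); circle area grows with the peak signal. The strongest circles, 3435 at CR43334 and 2390 at CR31044, lie next to the 5′ end.

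At the microRNA hairpins themselves the signals were low. The 19 microRNA members lay near 17 genes and had a highest signal of 619, at mir-9377 in an intron of Tis11, which encodes an RNA-binding protein that promotes mRNA decay. The summits at mir-287 (534), mir-4962 (468), mir-4978 (396 and 332), mir-4981 (357) and mir-275 (329) followed, and the lowest was at mir-2491 (195). Of the 19, 13 lay inside a coding gene. In replicate 3 the mir-9377 summit ranked 1468 and in replicate 4 it ranked 1277, and the mir-287 summit ranked 1461 in replicate 3 and 2250 in replicate 4. The mir-iab-8 summit (255), which is also within the window of mir-iab-4 on the other strand, lay in the bithorax complex, where these microRNAs target Hox genes, and ranked 3151 in replicate 3 and 8224 in replicate 4.

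Among tRNA members, 3 had signals well above the rest. They were tRNA:Lys-CTT-1-10 (1764), tRNA:Leu-TAA-4-1 (1651, in an intron of jar, the gene of myosin VI) and tRNA:Trp-CCA-2-6 (1222), with ranks of 189, 241 and 440 in replicate 3 and of 400, 328 and 518 in replicate 4. The next tRNA member, tRNA:Arg-CCT-1-2, had 412, followed by tRNA:Gly-GCC-1-8 (375) and tRNA:Ile-AAT-1-9 (364). Of the 3 strongest, the Lys and Leu summits lay 604 and 723 bp upstream of the tRNA gene, and that at tRNA:Trp-CCA-2-6 51 bp upstream. The nearest coding TSS was 2470 bp from the Lys summit, 694 bp (jar) from the Leu summit and 522 bp (tud) from the Trp summit. The Leu summit was thus nearer to a coding start than to the tRNA gene. The B box motif GGTTCGA lay within 100 bp of the summit at 4 of 22 tRNA members (18.2%). Of windows of the same length centred on tRNA gene starts, 49% held it. The B box lies inside the gene, and only 12 of the 22 summits were within 250 bp of the start. The 2 shares thus differ in how far the windows lie from the gene, and their difference says nothing about the motif.

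The 9 snoRNA members had signals of up to 815, at snoRNA:Me18S-G1358a in an intron of drn, and the lowest was at snoRNA:Psi18S-301. The other leading ones were snoRNA:Me28S-U3344a (685), snoRNA:Or-ACA6 (608), snoRNA:Or-ACA9 (399), snoRNA:Psi18S-176 (322) and snoRNA:abba-a (299). These RNAs guide the methylation or pseudouridylation of ribosomal RNA, where their targets are known. The summit at snoRNA:Me28S-U3344a lay in an intron of Stt3A and ranked 2583 in replicate 3 and 695 in replicate 4. Host genes made only of snoRNA-bearing introns and non-coding exons, the Uhg genes, had an optimal summit within 1000 bp of a TSS at 3 of 7, where 14.6% of long non-coding genes and 24.2% of those with a coding TSS within 500 bp did. Uhg4 had a member of 1191 and Uhg3 one of 325, and the summit at Uhg2 lay too close to a coding TSS to be a member. The Uhg4 summit, 35 bp upstream of the start, ranked 978 in replicate 3 and 299 in replicate 4. Of the 3 snRNA members, snRNA:U5:63BC (588), a spliceosomal RNA, had no peak in replicate 3 and ranked 1540 in replicate 4. snRNA:7SKa (219), a copy of the RNA that holds the elongation factor P-TEFb inactive, ranked 11711 in replicate 3 and 3362 in replicate 4. snRNA:U5:38ABb (205) was the lowest.

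The strongest antisense member, asRNA:CR44429 (1728), lay in an intron of gce, which encodes a juvenile hormone receptor, and ranked 251 in replicate 3 and 280 in replicate 4. The summit at asRNA:CR45804 (1016) lay in an intron of Prps. The genes with most member summits, 3 each, were asRNA:CR45104 (840.2, 732 and 257), CR44331 in an intron of puc, the JNK phosphatase gene (1022, 685 and 413), and CR43650. The 1022 and 685 summits at CR44331 have the same peak bounds in the optimal list and overlap the same peak of each replicate, with rank 380 in replicate 3 and 1300 in replicate 4. The same holds for the 732 and 257 summits at asRNA:CR45104, with ranks 914 and 1386. At CR43650 the 475 and 290.1 peaks overlap each other and share their replicate peaks, with ranks 2404 and 1662. None of these 3 genes therefore had 3 separate sites.

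A list of 41 non-coding RNA genes with known functions, bound or not, was also read, and 40 of its names were matched. Of these, 7 had an optimal summit within 1000 bp of a TSS, where 15.4% of all non-coding genes did. They were Hsromega (999), bxd (246), a transcript of the region upstream of Ubx, flam (222), a source of transposon-silencing piRNAs, snRNA:7SKa (219), mir-8 (290.1), mir-iab-4 (255) and mir-ban (308). Values are those of the nearest summit, and mir-8 also had the 475 summit in its window. For microRNAs the start counted was that of the hairpin. By this count mir-124, mir-279, mir-996, mir-9a, mir-184, mir-10 and mir-34 were unbound, although their host transcripts had members. The unbound ones included roX1 and roX2, the RNAs of X-chromosome dosage compensation, whose nearest optimal summits were 5955 and 18610 bp away. Others were let7C, the precursor of mir-let7, mir-100 and mir-125, at 12525 bp, and cherub, an RNA of neural stem cells, at 13098 bp. Of the unbound genes, 11 had an entry in the pooled list of 30000 that was below the optimal threshold, at ranks from 7860 to 28712. The share of all non-coding genes with such an entry was not computed, so the 11 cannot be read as binding.

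CAGGTG lay within 100 bp of 18 member summits, 5.86% (3.74 to 9.08), against 8.01% of coding promoter summits, 7.68% of all optimal summits and 6.88% of windows centred on all 3634 non-coding TSSs. Its longer form CAACAGGTG was found at 2 members, CR46531 and tRNA:Trp-CCA-2-1 (0.651%), against 1.75% of all optimal summits and 0.165% of the TSS windows. GCAACA was the most frequent of the 7, at 29.3% of members (24.5 to 34.6), 31.1% of all optimal summits and 13.7% of the TSS windows. It was searched because it is frequent in these same peaks, so its place among the 7 and its excess over the TSS windows follow from that choice. GAGAGA lay at 16.3% of members, 14.3% of all optimal summits and 7.46% of the TSS windows, and CAGCTG at 10.7%, 12.6% and 7.15%. TATCGATA lay at 1 member (0.326%), snoRNA:Me28S-U3344a, against 5.27% of coding promoter summits and 0.184% of the remaining peaks. The 50 members with GAGAGA had a median signal of 412, against 322 for those without, and the 18 members with CAGGTG 362, against 323. The 90 members with GCAACA had 323, against 327. These differences were not tested, and some summits with a motif share a peak. The bantam, mir-279 with mir-996 and mir-124 host windows printed above each hold 1 GCAACA match and none of the other 6 motifs.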

How the data were processed

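ChIP-seq peaks of 2 samples were analysed. The deposited files are narrowPeak lists on dm6, per the labels, of 30000 peaks each for replicate 3, replicate 4 and their pool, and an IDR-thresholded list. The lists of 30000 are labelled as peaks and background for input to IDR, so not every entry is a called site. The signal per peak and the summit offset are the authors' values. The signal scale is set within a list, so lists were compared by rank. The deposited −log10 q-value was not used for ranking. Of the aligner, the peak caller, the IDR threshold and the depth, none is named in the labels used here.

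Starts came from Ensembl release 115 for the same assembly, and 0 peaks ran past a chromosome end. The 485 entries for mature microRNA arms were left out. RefSeq biotypes, matched by FlyBase identifier, split the non-coding RNAs into long non-coding and antisense. A summit was given the class of its nearest non-coding TSS. A replicate's leading peaks are its 6407 of highest signal. Motifs were sought on both strands within 100 bp of summits. Shares have Wilson intervals and densities exact Poisson intervals. The counting was tested on simulated peaks.

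Named genes are the 15 members of highest signal, up to 6 highest and the lowest per class, genes with most members, summits at the limits and listed genes; others were chosen after their values were seen. The members and lists were chosen with earlier results of these data known. Each sequence was read from the RefSeq genome. Tables were made with pandas 2.3.3 and numpy 2.4.6 in Python 3.11.15, intervals with scipy 1.17.1 and plots with matplotlib 3.10.9.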

Additional observations from a re-analysis of the deposited data

How the results depend on the processing

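Of 121 values recomputed under alternative settings, 79 stayed within the stated tolerance (1.5 times for counts, the 95% interval for shares) and 42 moved. Each of the settings below changes which starts, bases, peaks or scale are counted. With a non-coding window of 500 bp there were 187 members, of which 139 were long non-coding, 16 antisense, 13 tRNA and 11 microRNA, and 33.7% lay in coding genes. The shares of genes with a summit were then 9.25% over all non-coding, 9.09% long non-coding, 12.7% antisense, 13.1% tRNA, 8.06% snoRNA and 5.38% microRNA. With the 3203 best optimal peaks there were 145 members (109 long non-coding, 6 tRNA, 4 snoRNA and 5 microRNA), with a median signal of 622, 95.9% overlapped leading peaks of both replicates and 0.69% held GGTTCGA. The gene shares were 8.3% over all, 7.61% long non-coding, 12.1% antisense, 7.93% tRNA, 14.7% snoRNA and 4.62% microRNA, and 100% of the 6 tRNA summits were upstream. Antisense members numbered 49 with the 5′ end of each gene as its only start and 17 with coding starts excluded to 1000 bp. The share overlapping both replicates was 41% with the 3203 best peaks of each replicate as the leading ones. In windows of 50 bp on each side CAGGTG was found at 3.26%, CAGCTG at 5.54%, GAGAGA at 7.82%, GCAACA at 21.2%, TATCGATA at 0% and GGTTCGA at 0.326% of members. With 200 bp on each side CAGGTG was at 10.1%, CAGCTG at 18.9%, GAGAGA at 30% and GCAACA at 42.3%. From 1 replicate's own list the median signal was 160.1 to 171 on that list's scale, which is 0.959 to 0.978 times the median of the same list. The settings for host transcripts and for the side of antisense and tRNA summits were added after seeing the data.

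No paired analysis was possible because both samples belong to 1 group. With 2 samples, no input peak list and no depth, a weak peak cannot be told from an absent one, and members near the rank limit rest on the overlap of 2 libraries. Peaks and genes that neighbour each other are not independent.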
